A study of Mus musculus with 19 samples.

Results

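Genes of foreign-compound metabolism, 10 in all, were followed in small-intestinal crypts of fed and fasted mice with or without neurotensin, a peptide of enteroendocrine cells encoded by Nts. The group holds 8 cytochrome P450 genes (Cyp3a11, Cyp3a13, Cyp3a25, Cyp2b10, Cyp2c55, Cyp2c65, Cyp2d26 and Cyp1a1) and 2 receptor genes (Nr1i2, which encodes the pregnane X receptor, PXR, and Ahr, which encodes the aryl hydrocarbon receptor). They were chosen by name, with earlier results of these data known, and matched by symbol, 10 genes of 55487 in the files. All 10 were among the 17875 genes with enough counts to be tested. RNA was sequenced from crypts of 19 C57BL/6 mice, 1 library per mouse, in 4 groups: Nt+/+ fed ad libitum (n = 5), Nt-/- fed ad libitum (n = 4), Nt+/+ fasted for 48 hours (n = 5) and Nt-/- fasted for 48 hours (n = 5). The mice were of both sexes and 10 to 16 weeks old by the study's methods, the fed controls were littermates matched for sex and age, the fasted mice had water, and the deletion is present in the whole body, so that every tissue of an Nt-/- mouse lacks the peptide. By the same methods, crypts were isolated from the proximal part of the small intestine, so its distal end is not covered. The methods describe lines that also carry the Lgr5-EGFP-IRES-CreERT2 allele, and the labels do not say which of these mice carried it.

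Cytochrome P450 enzymes are heme proteins of the endoplasmic reticulum that oxidize drugs, plant compounds, steroids and fatty acids, with electrons passed on by P450 oxidoreductase. In the intestine the Cyp3a and Cyp2c enzymes of absorptive enterocytes meet swallowed compounds before the liver does. PXR and its relative CAR (the constitutive androstane receptor, gene Nr1i3) bind DNA with the retinoid X receptor and are known activators of Cyp3a, Cyp2b and Cyp2c genes, whereas the aryl hydrocarbon receptor pairs with ARNT and activates Cyp1a1, its best-known target.

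The genes lie on 7 chromosomes of GRCm38, and each is annotated as protein coding. Cyp3a11 (ENSMUSG00000056035, chr5:145854426-145879964, minus strand) and Cyp3a25 (ENSMUSG00000029630, chr5:145977194-146009618, minus) are neighbors in the Cyp3a cluster, 97.2 kb apart, and Cyp3a13 (ENSMUSG00000029727, chr5:137892932-137921619, minus) lies 7.93 Mb away from Cyp3a11 on the same chromosome. Cyp2c55 (ENSMUSG00000025002, chr19:39007019-39042693, plus) and Cyp2c65 (ENSMUSG00000067231, chr19:39061015-39093944, plus) are 18.3 kb apart in the Cyp2c cluster. The others are Cyp2b10 (ENSMUSG00000030483, chr7:25897620-25926624, plus), Cyp2d26 (ENSMUSG00000022445, chr15:82790101-82794294, minus), Cyp1a1 (ENSMUSG00000032315, chr9:57687928-57703824, plus), Nr1i2 (ENSMUSG00000022809, chr16:38248323-38294824, minus) and Ahr (ENSMUSG00000019256, chr12:35497974-35535038, minus).

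P450 genes have close copies, so the sequence that each shares with other genes was counted in windows of 100 bases, the read length. No window of Cyp3a13, Cyp2b10, Cyp2c55 or Nr1i2 transcripts occurred in another gene's transcripts. The shared windows made up 7.82% for Cyp2c65 (with Cyp2c66), 6.79% for Cyp3a25 (with Cyp3a59), 1.41% for Cyp1a1 (with Cyp1a2) and under that for Cyp3a11, Cyp2d26 and Ahr. Among the 10 genes, counts of Cyp2c65 and Cyp3a25 are therefore the ones that the split of reads among copies could touch most.

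The 250 bases before the RefSeq transcription start are shown for the gene that rose most on fasting, for its cluster neighbor, for a Cyp2c gene and for the one gene that fell (GRCm38.p6, 5′ to 3′ on the gene's strand). Capitals mark AGGTCA and AGTTCA, hexamers read by nuclear receptors, CAAAGTCCA, an element of the HNF4 type, GCGTG, the core read by the aryl hydrocarbon receptor, and TATAAA, all searched on both strands.
Cyp3a11, chr5:145879855-145880104, minus: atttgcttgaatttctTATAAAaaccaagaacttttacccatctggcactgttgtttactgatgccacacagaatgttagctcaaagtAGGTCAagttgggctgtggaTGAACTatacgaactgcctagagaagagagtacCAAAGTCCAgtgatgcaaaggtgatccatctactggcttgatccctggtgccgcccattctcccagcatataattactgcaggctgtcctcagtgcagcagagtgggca
Cyp3a25, chr5:146009619-146009868, minus: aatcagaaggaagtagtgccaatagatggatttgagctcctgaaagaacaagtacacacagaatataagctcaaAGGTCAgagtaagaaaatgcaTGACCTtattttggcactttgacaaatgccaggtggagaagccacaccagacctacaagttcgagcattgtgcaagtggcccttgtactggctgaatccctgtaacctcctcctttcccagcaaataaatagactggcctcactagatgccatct
Cyp2c65, chr19:39060756-39061005, plus: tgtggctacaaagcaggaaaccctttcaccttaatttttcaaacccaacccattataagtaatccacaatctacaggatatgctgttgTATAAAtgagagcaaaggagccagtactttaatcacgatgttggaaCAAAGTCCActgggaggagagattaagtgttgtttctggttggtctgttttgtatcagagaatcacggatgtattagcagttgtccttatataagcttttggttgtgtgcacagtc
Cyp1a1, chr9:57697363-57697612, plus: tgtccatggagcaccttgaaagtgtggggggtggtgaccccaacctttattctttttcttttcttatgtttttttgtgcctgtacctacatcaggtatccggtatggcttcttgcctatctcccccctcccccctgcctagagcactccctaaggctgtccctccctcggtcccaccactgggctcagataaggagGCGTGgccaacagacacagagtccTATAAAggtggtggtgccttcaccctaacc

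Cyp3a11 had AGGTCA 162 bases and AGTTCA, on the opposite strand, 142 bases before its start. Cyp3a25 had AGGTCA on both strands, 176 and 155 bases before its start. CAAAGTCCA stood 109 bases before the start of Cyp3a11 and 116 bases before that of Cyp2c65, and 0.384% of all 32851 windows of this length held it. GCGTG stood 54 bases before the start of Cyp1a1, and the same letters were in 28.2% of all windows. AGGTCA was in 14% of all windows, AGTTCA in 11.8% and TATAAA in 12.4%, and no matches overlapped in the 4 sequences. Of the 9 genes with an entry, Cyp2b10 also held GCGTG on both strands, Cyp2c55 and Cyp2d26 held TATAAA alone, and Cyp3a13 and Nr1i2 held none of the 5 motifs in this window. The Cyp1a1 window lies wholly, and those of Cyp3a11, Cyp2b10 and Cyp2d26 partly, inside the gene spans given above, which come from another annotation. The CAAAGTCCA of Cyp3a11 is in the part inside its span. These matches describe letters and not binding.

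Deposited counts per mouse summed to 9059418 to 35068669 (median 18541770), and the shallowest libraries were Nt-/- fasted mice 2 and 4. Nts itself checked the genotypes: it was 4.98 to 8.59 CPM (counts scaled to a common library size) in the 10 mice titled Nt+/+ and 0.144 to 0.793 CPM in the 9 titled Nt-/-. Nt+/+ fasted mouse 5 is labelled Nt-/- in its genotype field, and its 5.43 CPM of Nts lay within the Nt+/+ mice, so it was kept by its title and results are given with and without it where they change. Paneth cell markers summed to 18300 to 44200 CPM and stem cell markers to 1040 to 2920 CPM, whereas 6 fibroblast markers summed to 5.85 to 12.3 CPM, and the pancreatic lipase gene Pnlip was at 0 in all mice. Markers of absorptive enterocytes were also abundant. The sum of 14 of them (Alpi, Apoa1, Fabp1, Sis and others) was 8390 to 16500 CPM in fed and 16000 to 30100 CPM in fasted Nt+/+ mice, and 12000 to 17600 and 26600 to 36700 CPM in Nt-/- mice.

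Levels of different genes were compared on the deposited TPM, transcript abundances scaled for length as well as depth. Over the 19 mice the mean TPM was 165 for Cyp3a11, 93.9 for Cyp3a13, 77.7 for Cyp2d26, 53.6 for Cyp2c65, 48.6 for Cyp3a25 and 43.2 for Cyp2b10. These were the 6 highest of the 58 Cyp1, Cyp2 and Cyp3 genes listed in the files. Nr1i2 followed at 32.8, Cyp2c55 at 7.07 and Ahr at 5.32. Cyp1a1 was barely detected, with a mean TPM of 0.155 and 134 counts in all mice together. The order of the first genes depended on feeding. In fed Nt+/+ crypts Cyp3a13 was highest (mean TPM 60.8 ± 20.3, SD, n = 5), above Cyp2c65 (41.8 ± 15.1), Cyp2d26 (40 ± 17.7), Cyp3a11 (32.4 ± 20.6), Cyp3a25 (30.8 ± 15.1), Nr1i2 (29.2 ± 3.91) and Cyp2b10 (24.4 ± 12), and the SD ranges of neighbors in this order overlapped. In fasted Nt+/+ crypts Cyp3a11 was highest, at 219 ± 176 TPM, ahead of Cyp3a13 at 98.8 ± 35.1, with overlapping SD. In fasted Nt-/- crypts Cyp3a11 reached 350 ± 135 TPM and Cyp3a13 146 ± 35.2, and their SD ranges did not overlap.

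**Figure D1:**
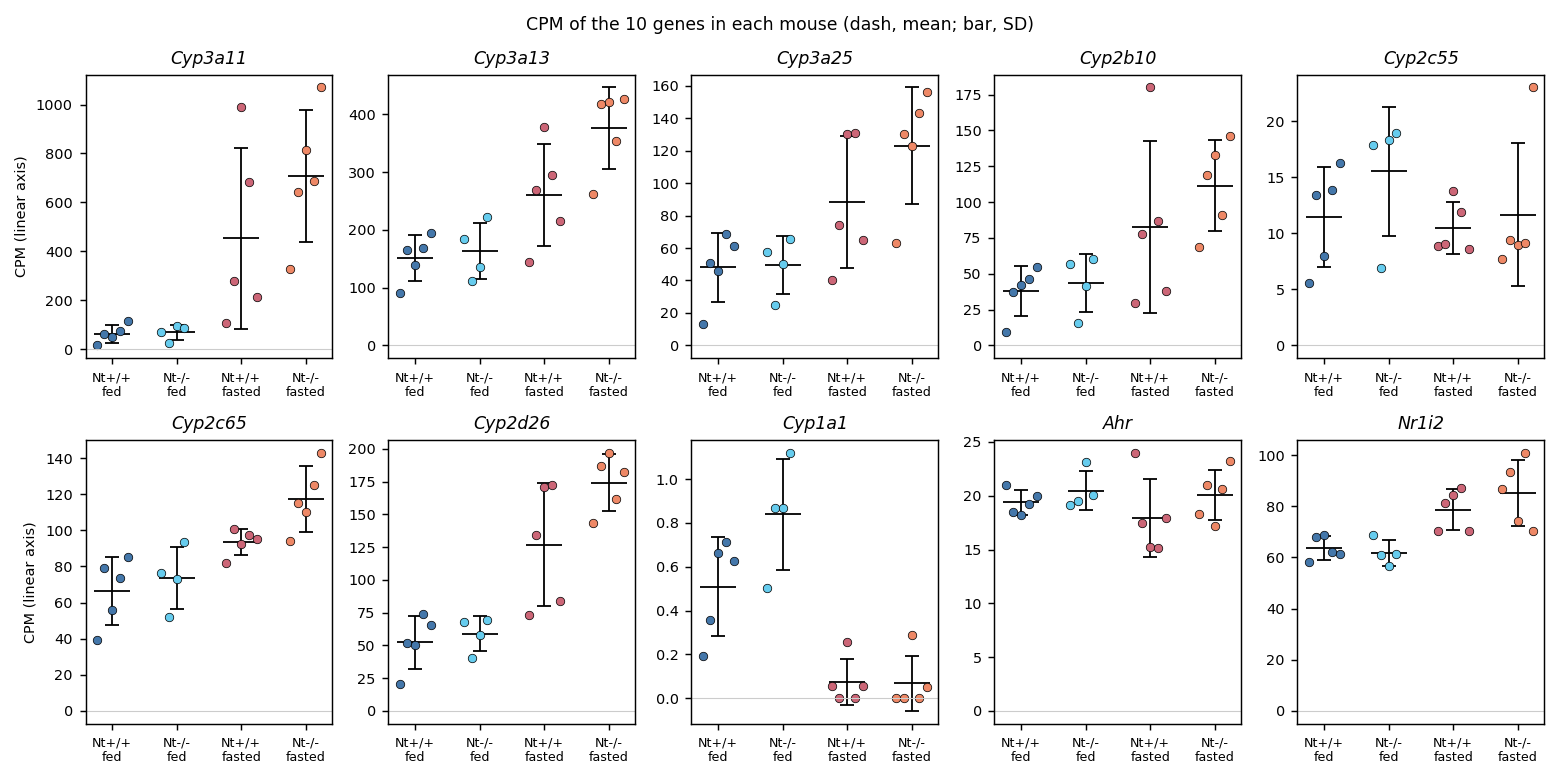
CPM of the 10 genes in each mouse, on linear axes, by genotype and feeding (points, mice in replicate order; dash, mean; bar, SD; n = 5, 4, 5 and 5). Cyp3a11 rose from 14.8 to 115 CPM in fed Nt+/+ mice to 108 to 988 CPM in fasted ones, Cyp1a1 fell to 0 in 5 of the 10 fasted mice, and Ahr stayed between 15.1 and 24 CPM in all groups.

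The first question was how a 48-hour fast changed these genes in crypts with neurotensin. In Nt+/+ mice 5 of the 10 genes were higher after fasting (Cyp3a11, Cyp2d26, Cyp3a13, Cyp2c65 and Nr1i2) and 1 was lower (Cyp1a1), by the quasi-likelihood test of edgeR at 0.05 after Benjamini-Hochberg adjustment over all genes tested. Of all 17875 genes, 11.2% were called higher and 10.4% lower in this comparison. The largest rise was that of Cyp3a11, 7.25-fold, and the others rose 1.24-fold to 2.43-fold. In Nt-/- mice 7 of 10 were higher, with Cyp2b10 and Cyp3a25 added, and Cyp1a1 was again lower, where 12.5% and 12.6% of all genes were called higher and lower. These counts, 6 and 8 genes called, come from a fit without pairing. With mice paired by the number in their file names, 7 of the 10 genes were called in each genotype. The replicates are single mice, and fewer cells of a type cannot be told apart from less RNA per cell in libraries made from whole crypts.

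Cyp3a11, the main inducible Cyp3a enzyme of the mouse, had the widest range. In the 5 fed Nt+/+ mice it was 14.8, 61.6, 48.4, 72.3 and 115 CPM, and in the 5 fasted ones 108, 278, 988, 683 and 211 CPM. Fasted mouse 1 was below the highest fed mouse, and the other 4 fasted mice were above all fed mice. In Nt-/- crypts the fed values were 69.7, 23.2, 92.6 and 86.0 CPM and the fasted ones 326, 643, 813, 686 and 1070 CPM, with no overlap. The log2 fold change was 2.86 (SE 0.57, adjusted p = 0.00129) in Nt+/+ and 3.38 (SE 0.63, adjusted p = 0.000652) in Nt-/- mice. The call held in each of the 21 alternative settings in Nt+/+ (log2 fold change 2.36 to 3.20) and in each of the 20 in Nt-/- (3.1 to 3.6).

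The other Cyp3a enzymes moved less. Cyp3a13, which was the most abundant of the set in fed crypts, was 90.7, 165, 140, 168 and 195 CPM in fed and 144, 270, 379, 296 and 215 CPM in fasted Nt+/+ mice. Fasted mouse 1 lay within the fed range, and the other 4 fasted mice exceeded every fed mouse. The log2 fold change was 0.78 (SE 0.24, adjusted p = 0.0222). The fed range in Nt-/- mice was 112 to 222 CPM and the fasted range 262 to 426 CPM, and the log2 fold change was 1.20 (SE 0.26, adjusted p = 0.00186). Cyp3a25, the cluster neighbor of Cyp3a11, was 13.2 to 68.6 CPM in fed and 40.3 to 131 CPM in fasted Nt+/+ mice, and its log2 fold change of 0.88 (SE 0.37) did not pass the test (adjusted p = 0.1). Its values in Nt-/- mice were 24.9 to 65.8 CPM fed and 63.0 to 156 CPM fasted, a log2 fold change of 1.31 (SE 0.40, adjusted p = 0.0218). With the number in the file name as a replicate block, which pairs mice across groups, Cyp3a25 passed in Nt+/+ mice too (log2 fold change 0.89, adjusted p = 0.0399). It also passed without Nt+/+ fasted mouse 1 (log2 fold change 1.06, adjusted p = 0.0420), and in Nt-/- mice the call was lost without fed mouse 2 (1.09, adjusted p = 0.0762) or fed mouse 3 (1.31, adjusted p = 0.0521).

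Cyp2d26, one of the Cyp2d enzymes, had the second-largest rise. It was 20.2, 51.7, 50.1, 74.0 and 65.2 CPM in fed and 72.8, 134, 171, 172 and 84.0 CPM in fasted Nt+/+ mice, where fasted mouse 1 was just under fed mouse 4. Fed Nt-/- mice had 67.6, 40.4, 58.0 and 69.6 CPM, all below fasted Nt-/- mice with 143, 187, 197, 162 and 182 CPM. The log2 fold changes were 1.28 (SE 0.28, adjusted p = 0.00246) and 1.56 (SE 0.30, adjusted p = 0.000766), and both calls held in every alternative run.

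Cyp2b10, the classic target of CAR, ranged from 9.45 to 55.0 CPM in fed and from 29.4 to 180 CPM in fasted Nt+/+ mice. Its log2 fold change of 1.12 (SE 0.46) did not pass (adjusted p = 0.0893). Values in Nt-/- mice were 15.6 to 60.3 CPM fed and 68.8 to 146 CPM fasted, without overlap, and the log2 fold change of 1.35 (SE 0.49) passed narrowly (adjusted p = 0.0499). That call was lost in 13 of 20 alternatives, among them the block by file-name number (log2 fold change 1.09, adjusted p = 0.0762) and the omission of any 1 Nt-/- mouse except fasted mouse 1 (adjusted p 0.0535 to 0.143). In Nt+/+ mice Cyp2b10 passed in 1 of 21 alternatives, without fasted mouse 1 (log2 fold change 1.33, adjusted p = 0.0368).

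The neighboring Cyp2c genes are given side by side, and the difference between them was not tested. Cyp2c65 was 39.2, 78.9, 56.0, 73.6 and 85.3 CPM in fed and 82.1, 101, 92.5, 97.3 and 95.3 CPM in fasted Nt+/+ mice, so that fed mouse 5 was the only fed mouse within the fasted range. The log2 fold change was 0.49 (SE 0.17, adjusted p = 0.0478) in Nt+/+ mice, and this call was lost in 13 of 21 alternatives. In Nt-/- mice Cyp2c65 rose from 52.0 to 93.5 CPM to 94.1 to 143 CPM (log2 fold change 0.67, SE 0.18, adjusted p = 0.0110), and the call held in all 20. Cyp2c55 did not pass in either genotype. It was 5.57, 13.4, 7.99, 13.9 and 16.3 CPM in fed and 8.86, 9.07, 13.8, 11.9 and 8.57 CPM in fasted Nt+/+ mice (log2 fold change -0.13, SE 0.33, adjusted p = 0.821). Nt-/- mice had 17.9, 6.93, 18.3 and 18.9 CPM fed and 7.69, 9.42, 8.96, 9.17 and 23.0 CPM fasted (log2 fold change -0.40, SE 0.34, adjusted p = 0.435). In each Nt-/- group 1 mouse stood apart, fed mouse 2 low and fasted mouse 5 high.

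Cyp1a1, the aryl hydrocarbon receptor target, was the one gene of the 10 that was called lower. Its counts were 4, 8, 10, 14 and 13 in fed and 1, 0, 5, 0 and 1 in fasted Nt+/+ mice, and 17, 16, 18 and 21 in fed and 0, 0, 5, 0 and 1 in fasted Nt-/- mice. As CPM the fed mice had 0.192 to 1.12 and the fasted mice 0 to 0.289. Where the count was 0, the limit of 3 counts was 0.160 to 0.340 CPM, which covers counting error only. The groups overlapped in Nt+/+ mice through fasted mouse 3 and did not overlap in Nt-/- mice. The fitted log2 fold change was -2.56 (SE 0.71, adjusted p = 0.0130) in Nt+/+ and -3.26 (SE 0.72, adjusted p = 0.00244) in Nt-/- mice, and the calls held wherever the gene was tested, although the gene drops out if at least 10 counts are required in every mouse.

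Of the receptors, Nr1i2 was 58.2, 68.1, 68.9, 62.0 and 61.4 CPM in fed and 70.3, 81.5, 84.4, 87.3 and 70.3 CPM in fasted Nt+/+ mice. It was the 1 gene of 10 whose fed and fasted Nt+/+ mice did not overlap, against 7.63% of all genes that were higher without overlap. Its log2 fold change was 0.31 (SE 0.10, adjusted p = 0.0261), and this call was lost in 6 of 21 alternatives, each of them the omission of 1 mouse (fed mouse 1, 4 or 5, or fasted mouse 2, 3 or 4, adjusted p 0.0505 to 0.0754). In Nt-/- mice it was 56.6 to 68.7 CPM fed and 70.4 to 101 CPM fasted (log2 fold change 0.46, SE 0.10, adjusted p = 0.00256). There 6 of the 10 genes were higher without overlap and Cyp1a1 lower, beside 10.5% and 10.8% of all genes. Ahr did not pass in either genotype. It was 21.0, 18.5, 18.2, 19.2 and 20 CPM in fed and 24, 17.5, 15.2, 15.1 and 17.9 CPM in fasted Nt+/+ mice, with log2 fold changes of -0.11 (SE 0.11, adjusted p = 0.527) and, in Nt-/- mice, -0.03 (SE 0.12, adjusted p = 0.905).

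The number of genes called in Nt+/+ mice rested on single mice. It was 3 rather than 6 without fed mouse 1, without fasted mouse 3 or without fasted mouse 4, where Cyp3a13, Cyp2c65 and Nr1i2 were lost each time, and 8 without fasted mouse 1. Without fasted mouse 5, the one with disagreeing labels, it was 5, as Cyp2c65 did not pass (log2 fold change 0.48, adjusted p = 0.0708), and Cyp3a11 rose by 3.04 on the log2 scale. In Nt-/- mice 6 to 8 of the genes were called whichever mouse was omitted.

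The same few mice were low throughout. Among the 7 P450 genes other than Cyp1a1, Nt+/+ fed mouse 1, Nt-/- fed mouse 2 and Nt-/- fasted mouse 1 had the lowest CPM of their group in 7 of 7, and Nt+/+ fasted mouse 1 in 6 of 7. All of these but Nt-/- fed mouse 2 carry number 1 in their file names, and no source says what that number stands for. Across the 19 mice, the log2 CPM of Cyp3a11 and Cyp2d26 had a Pearson correlation of 0.971, Cyp3a11 and Cyp3a13 of 0.959, and Cyp3a25 and Cyp2b10 of 0.956, whereas Cyp2c55 and its neighbor Cyp2c65 had 0.414. These points share libraries and the feeding groups, and the values are descriptions.

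The enterocyte sum was lowest of its group in Nt+/+ fed mouse 1, Nt+/+ fasted mouse 1 and Nt-/- fasted mouse 1. In fed Nt-/- mice it was lowest in mouse 3 (12000 CPM), just under mouse 2 (12500 CPM). On fasting 11 of 14 enterocyte markers were higher in Nt+/+ and 13 of 14 in Nt-/- mice, and none was lower. Their median log2 fold change was 0.91 and 1.18, beside -0.01 and -0.02 over all genes. Over all genes, 11.2% and 12.5% were called higher and 10.4% and 12.6% lower. For dividing cells, 3 and 5 of 6 markers were lower and none was higher. Goblet cell markers were lower in 2 and 4 of 6, stem cell markers in 1 and 2 of 6, and Paneth cell markers in 0 and 1 of 6, and none was called higher. Of the 6 stem cell markers, 4 had a log2 fold change above 0 in Nt+/+ mice (median 0.09). In Nt-/- mice 1 of the 6 was above 0 (median -0.28). Of 4 markers of distal small intestine 2 were higher in each genotype, and of 4 of proximal small intestine 1 was lower in each and 1 higher in Nt-/- mice. The Pearson correlation of log2 CPM with the log2 enterocyte sum over 19 mice was 0.984 for Cyp2d26, 0.975 for Cyp3a13, 0.955 for Cyp3a11, 0.916 for Cyp3a25, 0.902 for Cyp2b10, 0.889 for Cyp2c65 and 0.819 for Nr1i2. For Cyp2c55 it was 0.146, for Ahr -0.318 and for Cyp1a1 -0.633. Within the 9 fed mice it was 0.93 for Cyp3a13 and 0.769 for Cyp3a11, and within the 10 fasted mice 0.966 and 0.911. The part of these cell-type and regional markers in the fasting results was not tested.

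Set against the enterocyte sum of the same mouse, the genes fell into different positions, given here as values with no test. The 14 markers themselves rose unevenly on fasting, with log2 fold changes of 0.26 to 2.09 in Nt+/+ and 0.39 to 2.05 in Nt-/- mice. The quotients therefore depend on the markers summed and are not levels per enterocyte. Per 1000 CPM of enterocyte markers, Cyp3a13 was 11.1 ± 1.02 CPM in fed and 10.5 ± 1.40 CPM in fasted Nt+/+ mice (SD, n = 5 each), and 11 ± 1.52 (n = 4) and 11.5 ± 0.992 CPM (n = 5) in Nt-/- mice. Cyp3a11 was 4.29 ± 2.08 CPM fed and 16.7 ± 10.8 CPM fasted in Nt+/+, and 4.66 ± 2.43 and 21.3 ± 7.02 CPM in Nt-/- mice. The fasted mean was thus 3.89 and 4.57 times the fed mean for Cyp3a11, against 0.946 and 1.05 times for Cyp3a13, 1.04 and 1.12 times for Cyp3a25, 1.17 and 1.17 times for Cyp2b10 and 1.37 and 1.33 times for Cyp2d26. The quotient was 0.831 and 0.719 for Cyp2c65, 0.687 and 0.618 for Nr1i2, 0.538 and 0.334 for Cyp2c55, 0.538 and 0.43 for Ahr, and 0.0839 and 0.0337 for Cyp1a1. Cyp3a11 and Cyp2d26 thus had quotients above 1 in both genotypes, and Cyp2c65, Nr1i2, Cyp2c55, Ahr and Cyp1a1 below 1. Those of Cyp3a25 and Cyp2b10 were slightly above 1, and their fed and fasted SD ranges overlapped in both genotypes. In Nt+/+ mice Cyp3a25 was 3.33 ± 1.03 CPM fed and 3.47 ± 0.86 CPM fasted, and Cyp2b10 2.65 ± 0.932 and 3.11 ± 1.67 CPM. The SD ranges of Cyp2d26, Cyp2c65, Nr1i2 and Ahr also overlapped in Nt+/+ mice. For Cyp3a11 the single mice overlapped in Nt+/+ (1.77 to 7.52 CPM fed and 6.77 to 32.8 CPM fasted) and not in Nt-/- mice (1.85 to 7.73 and 12.3 to 31.1 CPM).

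**Figure D2:**
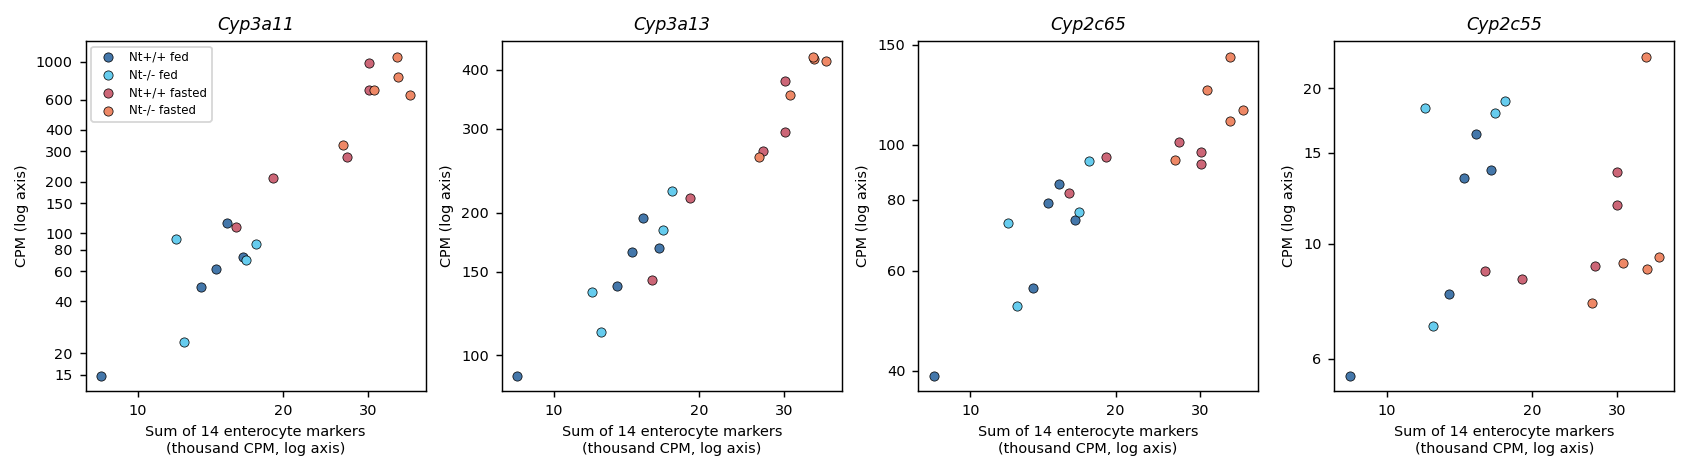
CPM of 4 of the genes against the summed CPM of 14 enterocyte markers, 1 point per mouse, both axes logarithmic, colored by group. Cyp3a13 and Cyp3a11 followed the sum (Pearson correlation of log2 values 0.975 and 0.955 over 19 mice), Cyp2c65 less closely (0.889) and Cyp2c55 hardly (0.146).

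The wider family gave the context. Of the 58 Cyp1, Cyp2 and Cyp3 genes, 27 were tested. In fasted Nt+/+ mice 14 were higher and 2 lower, beside 11.2% and 10.4% of all genes. In fasted Nt-/- mice 17 were higher and 1 lower, beside 12.5% and 12.6% of all genes. The same shares of all genes stand beside the fasting counts of every list that follows. Without the 8 genes described, 10 of 19 were higher and 1 lower in Nt+/+ and 11 of 19 higher in Nt-/- mice, with medians of 0.66 and 1.02 on the log2 scale. Cyp2c38 had the highest log2 fold change, 4.10 (SE 0.84, adjusted p = 0.00168) and 3.77 (SE 0.67, adjusted p = 0.000405), at only 135 counts in all. Among genes with more counts, Cyp2j6, the next in abundance after Cyp2b10 with a mean TPM of 40.3, rose by 0.84 (adjusted p = 0.000572) and 1.08 (adjusted p = 8.84e-05), and Cyp2d22 by 1.08 (adjusted p = 0.00549) and 1.43 (adjusted p = 0.000977). Cyp2c68 rose by 0.47 (adjusted p = 0.0313) and 0.81 (adjusted p = 0.00103). Cyp2j8, Cyp2j9, Cyp2d10 and Cyp3a59 were called higher in both genotypes as well, Cyp2c66 and Cyp2s1 in Nt+/+ mice, and Cyp2c23, Cyp2c67 and Cyp3a44 in Nt-/- mice, with log2 fold changes from 0.24 to 2.65. Several of these had few counts in all mice together: 117 for Cyp2j8, 126 for Cyp2d10, 138 for Cyp2c67, 181 for Cyp3a59, 251 for Cyp3a44 and 321 for Cyp2c23. Cyp3a59 also shares windows with Cyp3a25, and Cyp3a44 with Cyp3a11. The part of split reads in their calls was not tested. Cyp2r1, a vitamin D 25-hydroxylase, was lower in Nt+/+ mice (log2 fold change -1.52, adjusted p = 0.000439) and did not pass in Nt-/- mice (-0.71, adjusted p = 0.0559). Cyp2u1 and Cyp2e1 did not pass in either. Their mean TPM was 11.3 and 1.34.

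**Figure D3:**
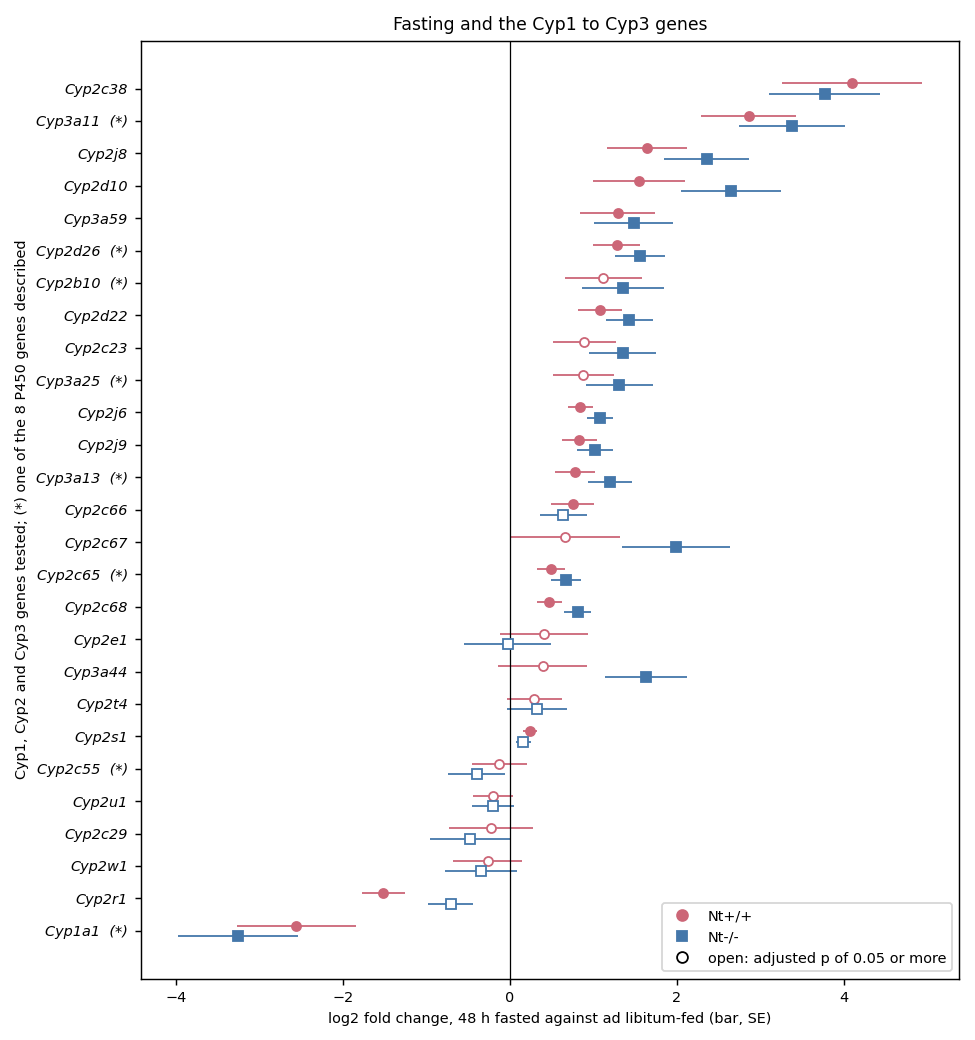
Log2 fold change on fasting (bar, SE) for the 27 tested Cyp1, Cyp2 and Cyp3 genes in Nt+/+ (circles) and Nt-/- mice (squares), with open symbols for an adjusted p of 0.05 or more and an asterisk for the genes described. Cyp2c38 and Cyp3a11 lie highest, between 2.86 and 4.10, and Cyp1a1 lowest, at -2.56 and -3.26.

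P450s of other families, which act largely on fatty acids, sterols and vitamins, were 6 of 16 higher and 1 lower in fasted Nt+/+ mice and 7 higher and 2 lower in Nt-/- mice. Cyp4a10, a fatty acid omega-hydroxylase, had the highest values of any P450 gene tested, with log2 fold changes of 7.99 (SE 0.67, adjusted p = 1.22e-07) and 7.67 (SE 0.71, adjusted p = 4.19e-07). Cyp4b1 rose by 2.19 and 2.30 on the log2 scale and Cyp27a1, the sterol 27-hydroxylase, by 1.75 and 2.17. Cyp20a1 was lower in both genotypes (-0.46, adjusted p = 0.0104, and -0.56, adjusted p = 0.00350), and Cyp17a1, which makes steroid precursors, was lower in Nt-/- mice (-1.32, adjusted p = 0.0207).

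P450 enzymes need electrons and heme, and 6 of 7 tested genes of that supply were higher in both genotypes. Por, the oxidoreductase that feeds every microsomal P450, rose by 1.55 on the log2 scale (SE 0.09, adjusted p = 1.74e-09) in Nt+/+ and by 1.51 (SE 0.10, adjusted p = 5.95e-09) in Nt-/- mice. Cyb5r3, the cytochrome b5 reductase, rose by 0.71 and 0.93, and Pgrmc1 by 0.43 and 0.68. Fech, which inserts iron into heme, rose by 0.24 and 0.36. Alas1, the first enzyme of heme synthesis, had log2 fold changes of 0.02 and -0.11 (adjusted p = 0.925 and 0.481).

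Receptor partners and coregulators were mostly not called. In Nt+/+ mice 3 of 16 were higher and 1 lower, beside 11.2% and 10.4% of all genes. In Nt-/- mice 5 were higher and 1 lower, beside 12.5% and 12.6% of all genes. Nr1i3, the gene of CAR, rose by 1.21 (SE 0.20, adjusted p = 0.000250) and 1.15 (SE 0.21, adjusted p = 0.000566), from a mean of 29.3 to 67.6 CPM and from 33.7 to 75.0 CPM. Rxra, the shared partner of PXR and CAR, rose by 0.49 and 0.51, and the transcription factor gene Hnf4g by 0.74 and 0.77. Its relative Hnf4a did not pass in Nt-/- mice, with a mean of 877 CPM fed and 749 CPM fasted (log2 fold change -0.23, adjusted p = 0.136). Ptges3, a cochaperone in the complex that holds the unbound aryl hydrocarbon receptor, was lower by 0.48 (log2 fold change -0.48, adjusted p = 0.00163) in Nt+/+ and had -0.39 (adjusted p = 0.00843) in Nt-/- mice.

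Among known targets of PXR and CAR outside the set, 8 of 10 tested genes were higher in Nt+/+ and 10 of 10 in Nt-/- mice, with medians of 1.23 and 1.30 on the log2 scale. The highest were the aldehyde dehydrogenase genes Aldh1a7 (2.25 and 2.49) and Aldh1a1 (2.14 and 2.30) and the glutathione transferase gene Gstm1 (1.66 and 1.78). Abcb1a, which encodes the efflux pump P-glycoprotein, rose by 1.15 and 1.14. Efflux transporters, which share Abcb1a, Abcc2 and Abcc3 with that list, were 3 of 6 higher in Nt+/+ and 4 of 6 in Nt-/- mice. Of 8 listed aryl hydrocarbon receptor targets other than Cyp1a1, 5 were tested, and 2 were called higher and none lower in both genotypes. These were Ugt1a6a (0.89 and 1.02) and Nqo1 (0.72 and 0.83), and Tiparp and Ahrr had log2 fold changes of -0.16 to 0.33 that did not pass. Ugt1a6a shares its last exons with the other Ugt1a genes, so its reads cannot be fully told apart from theirs.

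Conjugating and hydrolyzing enzymes were counted in the same comparisons. Of 13 UDP-glucuronosyltransferase genes 8 were higher in each genotype and none lower, among them Ugt2b5 (1.58 and 1.81) and Ugt1a1 (1.31 and 1.46). The Ugt1a genes of this list, Ugt1a1 included, share their last exons, so their calls are not independent of each other. Of 7 sulfotransferase genes 3 were higher in Nt+/+ and 4 in Nt-/- mice, with Sult6b2 (2.20 and 2.88) and Sult1d1 (0.95 and 1.21). Of 15 carboxylesterase genes 11 were higher and 1 lower in Nt+/+ mice, and 10 higher and 1 lower in Nt-/- mice. Ces1g (3.51 and 3.79) and Ces1f (2.67 and 2.77) were far above the median of the list, 1.36 and 1.21, and Ces1c was the one that was lower (-1.15, adjusted p = 0.00125, and -1.27, adjusted p = 0.000589). The enterocyte markers were higher in the same mice, and their part in these counts was not tested.

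**Figure D4:**
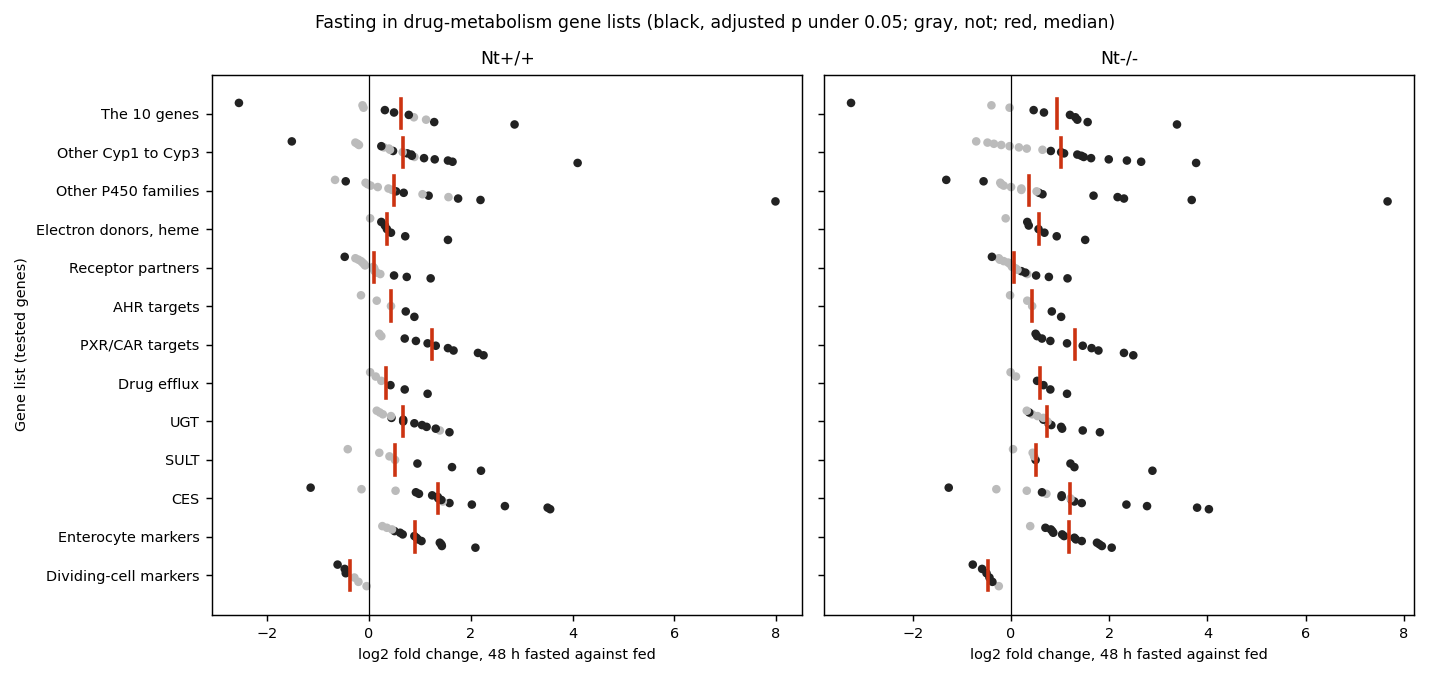
Log2 fold change on fasting of every tested gene of 13 lists in Nt+/+ (left) and Nt-/- mice (right), black where the adjusted p was under 0.05 and gray elsewhere, with the list median in red. Medians lie above 0 in 12 of the lists, up to 1.36 and 1.21 for carboxylesterases (CES) and 1.23 and 1.30 for PXR and CAR targets, and below 0 for markers of dividing cells.

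The second question was whether loss of neurotensin changed the genes in these crypts, which came from the proximal part of the small intestine. None of the 10 was called in fed mice and none in fasted mice, where 0.00559% of all genes, Nts alone, was called lower in each comparison, by edgeR. At an unadjusted p under 0.05 there were 0 and 1 of 10, beside 1.67% and 9.14% of all genes, and DESeq2 called none of the 10 either. In fed Nt-/- relative to fed Nt+/+ mice the log2 differences ran from -0.04 (SE 0.10) for Nr1i2 to 0.71 (SE 0.53) for Cyp1a1, and 9 of 10 were above 0. In fasted mice they ran from 0.00 (SE 0.91) for Cyp1a1 to 0.64 (SE 0.53) for Cyp3a11, with a median of 0.38 beside -0.01 over all genes. The largest relative to its error was Cyp3a13, with a mean of 261 ± 87.9 CPM in Nt+/+ and 376 ± 70.4 CPM in Nt-/- fasted mice (log2 difference 0.53, SE 0.23, unadjusted p = 0.0354, adjusted p = 0.491). Nt+/+ fasted mice 2, 3 and 4 lay within the Nt-/- range for this gene. The 14 enterocyte markers had a median log2 difference of 0.43 in the same comparison, none of them called, and the enterocyte sum ranged from 16000 to 30100 CPM in Nt+/+ and from 26600 to 36700 CPM in Nt-/- mice. With the mouse of disagreeing labels grouped as Nt-/-, the Cyp3a11 difference was 0.28 and that of Cyp3a13 was 0.36, and without it they were 0.46 and 0.47.

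The effect of fasting was compared between genotypes by the interaction term. None of the 10 genes passed, all with an adjusted p of 1, none of all 17875 genes passed (0%), and 2.71% of all genes had an unadjusted p under 0.05, none of the 10 among them. DESeq2 also called 0 genes. The difference of log2 fold changes was 0.52 (SE 0.77) for Cyp3a11, 0.42 (SE 0.34) for Cyp3a13, 0.43 (SE 0.54) for Cyp3a25, 0.24 (SE 0.66) for Cyp2b10 and -0.70 (SE 1.17) for Cyp1a1. Calls of Cyp2b10 and Cyp3a25 in Nt-/- mice alone are therefore not shown to differ from Nt+/+ mice.

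**Figure D5:**
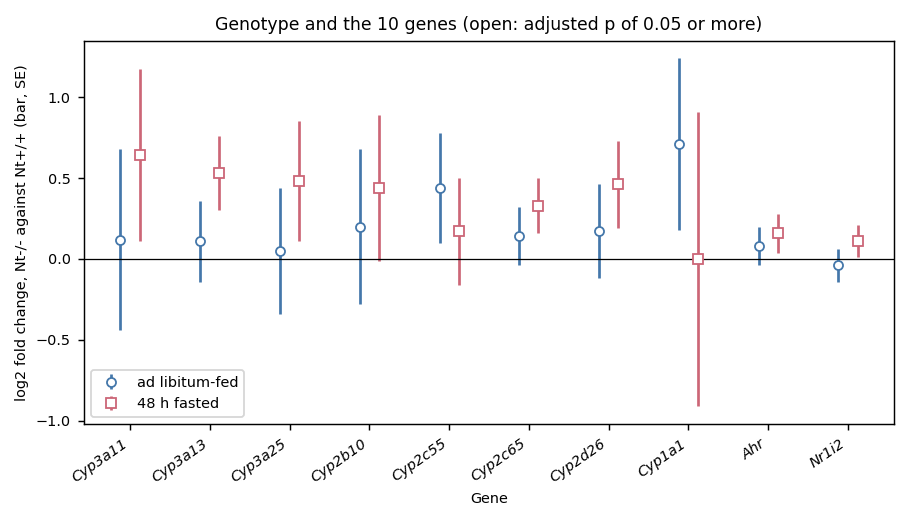
Log2 fold change of Nt-/- against Nt+/+ mice for the 10 genes (bar, SE), in fed (circles) and fasted mice (squares). No value passed the test, and the fasted values lie between 0.00 and 0.64.

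P450 genes differ between the sexes in mouse liver, so males and females were compared in the 18 mice with a sex label, with group in the model. None of the 10 genes was called, where 0.0789% of all 17743 genes tested were. The log2 difference of males to females was 1.12 for Cyp1a1 (SE 0.44, unadjusted p = 0.0218, adjusted p = 0.389), 0.66 for Cyp2b10 (SE 0.34, adjusted p = 0.513) and 0.65 for Cyp3a11 (SE 0.40, adjusted p = 0.604). The mice whose file names carry number 1, 2 or 4 were female and those with 3 or 5 male wherever a sex is given, so that sex and whatever the number stands for cannot be told apart.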

How the data were processed

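RNA of crypts from 19 mice was sequenced as ribosomal RNA-depleted, single-end libraries with reads of 100 bases (KAPA RNA HyperPrep with RiboErase). Per the labels and the methods, the authors trimmed reads with Trimmomatic 0.39 and quantified them with RSEM against Ensembl transcripts of GRCm38, and the RSEM version and strand setting are not given in the sources used here. The deposited values are RSEM's estimated counts, left unnormalized by the authors, and the deposited TPM, which the authors' RSEM run scaled for transcript length and depth, for 55487 genes per mouse, and 55141 identifiers were matched to symbols. RSEM divides reads that fit several genes by probability, which matters for close P450 copies.

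Expected counts were rounded and analysed in edgeR 4.0.16 (R 4.3.3) with TMM scaling, filterByExpr and the quasi-likelihood test, 1 coefficient per group, all 19 mice sharing 1 estimate of spread (15 residual degrees of freedom). Genes with a Benjamini-Hochberg adjusted p under 0.05 over the 17875 genes tested were called. The SE was obtained from the log2 fold change and the F statistic (their size over root F). CPM use TMM library sizes, and log2 CPM a prior count of 2. The deposited TPM served only to compare levels between genes. Correlations and quotients to marker sums carry no test. No 2 libraries held identical counts. The procedure was run on simulated counts with the same spread for every gene and no pairing of mice. That run therefore does not check calls of genes that vary more. Counting limits of 3 counts cover counting error only.

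The members, gene lists and markers were chosen with earlier results of these data known, so a list's direction is not independent evidence. Named are the 10 genes in every comparison, Nts, the called genes with the 3 highest and 3 lowest fold changes of a list, called Cyp1 to Cyp3 genes, the 10 most abundant other Cyp1 to Cyp3 genes and the 2 genes most correlated with each member, and the text gives a selection of these. Some list members that did not pass (Alas1, Tiparp, Ahrr and Hnf4a) fall outside that rule and were named after their values were seen.

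Groups follow the titles. A replicate number in the title and a first number in the file name could pair mice, and deviations from the group means were correlated between mice that share a number. By the file-name number all pairs were above 0.1 in each comparison (5 of 5, 4 of 4, 4 of 4 and 5 of 5), and by the title number 5 of 5, 2 of 4, 2 of 4 and 5 of 5. The file-name number was therefore taken to pair mice, a hint from the data since no source says what it stands for. Alternatives were no or a stricter low-count filter, upper-quartile scaling, DESeq2 1.42.0, blocks, sex as a covariate, other groupings of the mouse with disagreeing labels, the compared groups alone, each mouse omitted, and 2 added after seeing the data. Positions are from GENCODE M21 (GRCm38) and promoter sequences from RefSeq (GRCm38.p6), which had entries for 9 of the 10 genes and none for Ahr.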

Additional observations from a re-analysis of the deposited data

Results flagged for a closer look

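In 40 sets of values (10 genes in 4 groups of 4 or 5 mice), 4 held a mouse whose gap to its nearest neighbor exceeded Dixon's limit. Chance alone gives about 1 in 20 if values are normally distributed, which was not checked. That rate does not hold for the Cyp1a1 sets, where several mice were tied at 0. Cyp2c55 was low in Nt-/- fed mouse 2, at 6.93 CPM, where the next lowest had 17.9 CPM. The same gene was high in Nt-/- fasted mouse 5, at 23.0 CPM, with the next highest at 9.42 CPM. Cyp1a1 was high in Nt+/+ fasted mouse 3 (0.257 CPM, next 0.0579) and in Nt-/- fasted mouse 3 (0.289 CPM, next 0.0528), which are 5 counts each.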

How the results depend on the processing

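Of 1350 values of the 10 genes under alternative settings, none that was called changed sign, 38 lost a call and 5 gained one. A further 38 changed sign without being called in either setting, mostly genotype differences near 0. Cyp3a11, Cyp2d26 and Cyp1a1 kept their calls on fasting in both genotypes wherever they were tested. With the replicate block by file-name number, 7 of the 10 genes were called in Nt+/+ and 7 in Nt-/- mice (5484 and 5672 genes in all, 3862 and 4499 without it). Cyp3a25 gained its call in Nt+/+ (log2 fold change 0.89, adjusted p = 0.0399), Cyp2b10 lost its call in Nt-/- (1.09, adjusted p = 0.0762), and no other call of the 10 changed under this pairing. Calls among the 10 genes in Nt+/+ mice numbered 3 to 8 when 1 mouse was omitted. For genotype, 1 gene (Nts) was called in fed and 1 in fasted mice. It was 0 and 0 when at least 10 counts were required in every mouse, because the filter removes Nts, and 0 and 0 with the mouse of disagreeing labels grouped as Nt-/-. DESeq2 called 3 in fed and 101 in fasted mice, none of the 10 among them, and the cause of the larger number was not tested. In fasted mice, omitting 1 mouse gave 1 to 4 genes, and omitting the mice with file-name number 1 gave 2. For sex, 14 genes were called, 125 without a filter, 5 with the stricter filter, 98 by DESeq2, 4 in fed and 3 in fasted mice alone, and 11 to 25 when 1 mouse was omitted, and none of the 10 genes was called in any of these. Depth limits Cyp1a1 most, at 134 counts in 19 mice.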

Other observations

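Some of the genes most alike to the set in log2 CPM over the 19 mice are not P450 genes. Ephx2, which encodes the soluble epoxide hydrolase that acts on the epoxides P450s make from fatty acids, was the nearest to both Cyp2d26 (Pearson correlation 0.988) and Cyp3a11 (0.979). Akr1b7, an aldo-keto reductase gene, was next for Cyp3a11 (0.978) and Aqp3, an aquaglyceroporin gene, for Cyp2d26 (0.984). Treh, the brush-border trehalase gene and one of the enterocyte markers, was nearest to Cyp3a13 (0.982), and the apolipoprotein gene Apoc3 was nearest to Cyp3a25 (0.97) and to Cyp2b10 (0.966). Cyp2c65 was nearest to Cyp2c68 (0.969) in its own cluster and then to Abcg2 (0.951), an efflux pump gene, whereas the highest correlation of Cyp2c55 was 0.759, with Mia, and that of Ahr was 0.807, with Bivm. Each is the highest of all tested genes over mice that share the feeding groups, so the values describe likeness in these libraries only.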
